A study of Mus musculus with 9 samples.

Results

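The syndecans and glypicans are the 2 families of membrane-attached heparan sulfate proteoglycans, and 10 mouse genes encode them: Sdc1 to Sdc4 and Gpc1 to Gpc6. They were matched by symbol to the Entrez IDs of an RNA-seq table of 28059 genes, and all 10 had an entry. The RNA came from YAMC cells, an immortalized mouse line usually described as colonic, although the labels give its tissue as small intestine. The 3 groups were knockout clone 19 (genotype Cdk8 -/-), knockout clone 1 (genotype Cdk8 -/-) and the wild-type parental line, with 3 libraries each. All cells shared growth at 32 °C and harvest in the logarithmic phase, and the knockouts were made with CRISPR. The design asks which transcripts differ when Cdk8, a kinase bound to the Mediator complex, is missing. Each knockout group is 1 clone, and no Cdk8-intact clone was among the libraries, so the effects of losing Cdk8 and of cloning cannot be told apart. The labels do not say whether the 3 libraries of a group came from separate cultures, so every p-value rests on library-to-library spread, which may be purely technical.

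Both families carry heparan sulfate, a long sulfated sugar chain, on a protein core. Syndecans span the membrane and have a short cytoplasmic tail that binds the cytoskeleton, whereas glypicans have a globular core held to the outer leaflet by a glycosylphosphatidylinositol anchor. Their chains bind growth factors, Wnt and Hedgehog proteins and matrix components, and so act as co-receptors at the cell surface. Sdc1 is the typical syndecan of epithelia, Sdc2 of mesenchymal cells and Sdc3 of neural tissue, while Sdc4 is widespread and sits in focal adhesions. Gpc1, Gpc2, Gpc4 and Gpc6 form one glypican subfamily by sequence and Gpc3 and Gpc5 the other.

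The 4 syndecans are close relatives in their tail, which matters for telling their reads apart. The lines that follow give the coding stretch of 36 bases for the conserved segment just inside the membrane, from GENCODE M21 transcripts of GRCm38, 5′ to 3′. Capitals mark the 27 bases that are the same in all 4 genes.
Sdc1: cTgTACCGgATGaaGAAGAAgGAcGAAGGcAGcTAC
Sdc2: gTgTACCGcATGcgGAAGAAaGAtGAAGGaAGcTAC
Sdc3: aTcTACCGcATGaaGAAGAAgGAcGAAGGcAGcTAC
Sdc4: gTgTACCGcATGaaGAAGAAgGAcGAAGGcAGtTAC
Outside such stretches the transcripts diverge. The longest run of identical bases shared by any pair of the 10 reference transcripts was 29, between Sdc3 and Sdc4, followed by 27 between Sdc1 and Sdc3. The coding regions of Sdc1, Sdc2, Sdc3 and Sdc4 are 933, 606, 1326 and 594 bases long. Only a read lying wholly within such a run would match both reference transcripts without a mismatch. Matches with mismatches were not searched, and in the 36 bases shown Sdc4 shares 33 with Sdc3. The submitters' handling of mismatches and of reads with several matches is not given in the sources used here.

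The 2 promoters shown next belong to the syndecan that was lower in the clones by the widest margin, Sdc3, and to the most abundant one, Sdc4, which was higher. They are the 250 bases before the RefSeq start of each gene in GRCm38.p6, on the gene's own strand. Sdc3 lies at chr4:130792287-130792536 (plus strand) and Sdc4 at chr2:164443189-164443438 (minus strand). Capitals mark the GC box, searched as GGGCGG on both strands.
Sdc3: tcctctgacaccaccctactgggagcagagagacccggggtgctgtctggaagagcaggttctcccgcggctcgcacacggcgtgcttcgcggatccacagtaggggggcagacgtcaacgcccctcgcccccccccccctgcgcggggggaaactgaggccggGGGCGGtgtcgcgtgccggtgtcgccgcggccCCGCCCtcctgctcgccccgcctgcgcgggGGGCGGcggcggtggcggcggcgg
Sdc4: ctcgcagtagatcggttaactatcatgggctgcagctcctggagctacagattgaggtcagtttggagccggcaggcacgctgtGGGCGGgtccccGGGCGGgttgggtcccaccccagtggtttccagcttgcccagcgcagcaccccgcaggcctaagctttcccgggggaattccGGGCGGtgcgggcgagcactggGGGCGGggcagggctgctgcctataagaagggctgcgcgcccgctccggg
The Sdc3 window is 76.4% G and C with 32 CpG dinucleotides, and the Sdc4 window 68.0% with 19, against a median of 52.4% and 6 CpG dinucleotides (upper quartile 16) over 32851 RefSeq promoters cut the same way. Sdc3 holds 3 GC boxes and Sdc4 holds 4, none overlapping another, and 32.7% of all these promoters hold at least 1. Neither window holds the CCAAT box (letters CCAAT) on either strand, which 33.8% of all promoters hold, nor the TATA box (letters TATAAA), which 12.4% hold. Likewise neither holds the AP-1 site (letters TGANTCA), found in 6.75%, nor the E-box (letters CACGTG), found in 6.02%. Such matches describe the sequence and are not evidence of binding.

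The deposited values are RPKM, in which reads are divided by gene length and by library size, which allows levels of different genes to be compared per length. Relative depth was recovered from the smallest steps of the values, and its scale was estimated with exon lengths from GENCODE M21. The estimate was 23.2 to 44.2 megareads a library. Its scale is the depth that most genes shared, given within 0.5% by 1161 of 15895 genes with a length. In the libraries 17974 to 18907 genes had a value above 0. Cdk8 RNA was lower but not lost, at 10.3 to 10.5 RPKM in clone 19 and 10.3 to 11.6 RPKM in clone 1, against 17.5 to 17.7 RPKM in parental cells. Of 12 intestinal epithelial markers, Cdx2 and Alpi were at 0, Cdx1, Epcam, Vil1, Krt20, Lgr5 and Muc2 averaged below 0.2 RPKM in every group, and Cdh1 averaged 1.25 RPKM in clone 19 and 0.521 RPKM in clone 1, against 0.549 RPKM in parental cells. The remaining 3, Krt8, Krt18 and Krt19, averaged 101 to 614 RPKM, and the sum of the list, nearly all keratin, was 968.6 to 975.4 RPKM in clone 19 and 986 to 1036 RPKM in clone 1, against 613 to 632 RPKM in parental cells. Mesothelial markers were abundant, 9 of 9 above 1 RPKM on average in each group, and their summed level was 1982 to 1995 RPKM in clone 19 and 1912 to 1959 RPKM in clone 1, against 1064 to 1068 RPKM in parental cells. However, mesothelin (Msln) averaged 101 RPKM in clone 19 and 82.6 RPKM in clone 1, against 111 RPKM in parental cells. Nkain4 averaged 4.74 and 1.64 RPKM in the same clones, against 3.67 RPKM. Every other gene of the list averaged higher in both clones. Mesenchymal markers summed to 2066 to 2125, 2308 to 2355 and 2296 to 2356 RPKM in the same order of groups, and immune, endothelial and neural lists each stayed below 1.1 RPKM in sum. Single mesenchymal genes went both ways: Col1a1 averaged 151 RPKM in clone 19 and 195 RPKM in clone 1, against 375 RPKM in parental cells. Dcn averaged 105 and 84.5 RPKM in the clones, against 47.2 RPKM. The keratin-led and mesothelial sums both move with the comparisons that follow, and their part in them was not tested. In bulk RNA, fewer cells that express a gene and less of its RNA per cell cannot be told apart.

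Of the 10 genes, 8 passed the filter of at least 1 RPKM in 3 libraries, and Gpc3 and Gpc5 did not. All 8 were called against parental cells in both clones at an adjusted p under 0.05 (limma with Benjamini-Hochberg adjustment over 12568 genes). In each clone Sdc2 and Sdc4 were higher, and Sdc1, Sdc3, Gpc1, Gpc2, Gpc4 and Gpc6 were lower. Called genes made up 69.0% of all tested genes in clone 19 (36.7% higher, 32.3% lower) and 72.4% in clone 1 (39.8% higher, 32.6% lower), so a call alone is common here. At 2-fold and beyond, 4 members were lower in clone 19 (Sdc3, Gpc1, Gpc4 and Gpc6) and 5 in clone 1 (with Gpc2), where 2.32% and 2.67% of all tested genes were called lower by that much. No member was 2-fold higher in either clone, beside 1.76% and 1.79% of all tested genes. Sdc3 and Gpc6 passed the filter only because of their parental libraries, so a difference was built into their inclusion. The comparisons share the 3 parental libraries, and the values of both clones are therefore given side by side and not as repeats of one another.

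**Figure D1:**
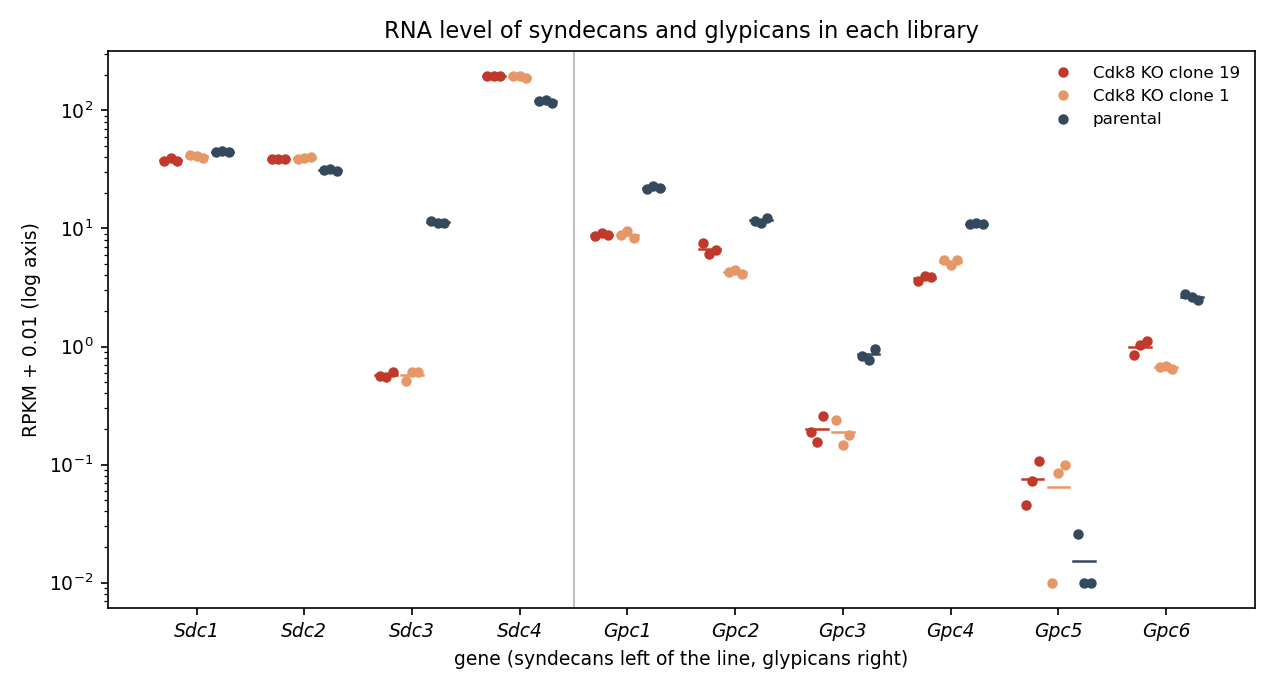
RNA level of the 10 genes in each of the 9 libraries, as RPKM + 0.01 on a log axis, with clone 19, clone 1 and parental cells from left to right for each gene and a short line at each group mean. Sdc3 stood between 0.502 and 0.603 RPKM in the 6 clone libraries and between 11.1 and 11.5 RPKM in the parental ones, and Sdc4 was the highest gene in every library.

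Sdc3, the syndecan best known from neurons and muscle precursors, was close to silent in both clones. It measured 0.555, 0.542 and 0.60 RPKM in the clone 19 libraries and 0.502, 0.603 and 0.601 RPKM in clone 1, against 11.5, 11.1 and 11.2 RPKM in parental cells. The clones overlapped each other, and the lowest parental library stood far above every clone library. The levels in clone 19 and clone 1 were 5.02% and 5.05% of the parental mean. In reads these values were 81, 90 and 74 in the clone 19 libraries and 58, 98 and 94 in clone 1, against 2520, 1558 and 1845 in parental cells, so the remainder in the clones was above 0 but rested on few reads. On the log2(RPKM + 0.5) scale the change was -3.46 ± 0.06 (SE, n = 3 against 3) in clone 19 and -3.46 ± 0.06 in clone 1, with adjusted p = 1.4e-11 and 1.2e-11 (limma). That scale understates the change of a gene this low: with a pseudocount of 0.1 it was -4.09 in each clone, and on the recovered reads -4.32 in clone 19 and -4.29 in clone 1. Among the 12568 tested genes, 3 in clone 19 and 7 in clone 1 had a change at or below that of Sdc3, counting Sdc3 itself.

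Sdc4, the syndecan that links matrix adhesion to the actin cytoskeleton and protein kinase C alpha, was higher in both clones. Its level was 195.6, 194.1 and 195.3 RPKM in the clone 19 libraries and 194.8, 195.7 and 189.7 RPKM in clone 1, against 120.0, 122.3 and 116.8 RPKM in parental cells. The clone libraries lay in 1 narrow band well above the parental band. The change was 0.70 ± 0.02 in clone 19 and 0.69 ± 0.02 in clone 1 on the log2(RPKM + 0.5) scale (SE, n = 3 against 3), with adjusted p = 3.0e-10 and 3.2e-10 (limma), or 1.63-fold and 1.62-fold in mean RPKM. Over each group's libraries together, 41985 reads supported Sdc4 in clone 19, 41540 in clone 1 and 31056 in parental cells.

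Sdc2 was higher by a smaller margin. It measured 39.1, 38.8 and 38.7 RPKM in the clone 19 libraries and 38.8, 39.8 and 40.7 RPKM in clone 1, against 31.5, 31.8 and 30.8 RPKM in parental cells. No clone library overlapped the parental range. The log2 change was 0.30 ± 0.02 in clone 19 and 0.34 ± 0.02 in clone 1 (SE, n = 3 against 3; adjusted p = 6.0e-07 and 2.3e-07, limma). Sdc1 went the other way, with 37.4, 39.2 and 37.0 RPKM in the clone 19 libraries and 41.6, 41.1 and 39.8 RPKM in clone 1, against 44.2, 45.0 and 44.3 RPKM in parental cells. Its 3 groups did not overlap, but the difference was small. On the log2 scale it changed by -0.23 ± 0.03 in clone 19 and -0.12 ± 0.03 in clone 1 (SE; adjusted p = 1.8e-05 and 0.0017, limma), close in clone 19 to the median absolute change of all tested genes, 0.20, and in clone 1 below that median, 0.22.

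The 4 glypicans that passed the filter were all lower in both clones, with log2 changes of -1.41 to -0.75 in clone 19 and -1.43 to -1.0 in clone 1. Their median log2 change was -1.17 in clone 19 and -1.32 in clone 1, beside 0.02 and 0.03 over all tested genes. Gpc6 passed the filter only through its parental libraries, so these medians include a gene whose difference was built into its inclusion. For the 4 syndecans the medians were 0.04 and 0.11, since 2 were higher and 2 were lower.

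Gpc1, a co-receptor for fibroblast growth factors and the most abundant glypican here, measured 8.71, 9.09 and 8.84 RPKM in the clone 19 libraries and 8.72, 9.49 and 8.31 RPKM in clone 1, against 21.7, 22.8 and 22.0 RPKM in parental cells. The clones overlapped each other and stood at 40.1% and 39.9% of the parental mean. Its log2 change was -1.27 ± 0.04 in clone 19 and -1.28 ± 0.04 in clone 1 (SE, n = 3 against 3; adjusted p = 1.2e-09 and 1.0e-09, limma).

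Gpc4, which is known to carry Wnt and fibroblast growth factors, measured 3.58, 3.98 and 3.88 RPKM in the clone 19 libraries and 5.39, 4.91 and 5.39 RPKM in clone 1, against 10.8, 11.1 and 11.0 RPKM in parental cells. All 3 groups were apart, with clone 19 the lowest. The fitted log2 change was -1.41 ± 0.05 in clone 19 and -1.0 ± 0.05 in clone 1 (SE; adjusted p = 1.1e-09 and 1.4e-08, limma), and the value for clone 1 lies at the 2-fold line itself.

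Gpc2, known mainly from the developing nervous system, showed the reverse order of the clones. It measured 7.51, 6.12 and 6.62 RPKM in the clone 19 libraries and 4.28, 4.41 and 4.11 RPKM in clone 1, against 11.6, 11.1 and 12.4 RPKM in parental cells. The groups did not overlap, and clone 1 was the lowest. The log2 change was -0.75 ± 0.07 in clone 19 and -1.35 ± 0.07 in clone 1 (SE; adjusted p = 1.8e-06 and 1.4e-08, limma).

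Gpc6, the closest relative of Gpc4 and a gene whose loss in people impairs bone growth, was low in all groups. It measured 0.841, 1.02 and 1.10 RPKM in the clone 19 libraries and 0.662, 0.679 and 0.630 RPKM in clone 1, against 2.77, 2.64 and 2.47 RPKM in parental cells. Parental libraries were again the highest and clone 1 the lowest, without overlap. Gpc6 passed the filter only through the parental libraries, so a difference was built into its inclusion. On the log2 scale it changed by -1.08 ± 0.08 in clone 19 and -1.43 ± 0.08 in clone 1 (SE; adjusted p = 3.8e-07 and 3.3e-08, limma), and on the recovered reads -1.43 and -2.0. The 581 reads over the clone 19 libraries and 388 over the clone 1 libraries compare with 1886 over the parental ones.

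Gpc3 and Gpc5 were too low for the filter. Gpc3, a regulator of body growth and Hedgehog signalling, measured 0.180, 0.145 and 0.249 RPKM in the clone 19 libraries and 0.228, 0.135 and 0.168 RPKM in clone 1, against 0.827, 0.764 and 0.946 RPKM in parental cells. Those values stand for 37 reads over clone 19 (95% exact Poisson interval 26.1 to 51.0) and 34 over clone 1 (23.5 to 47.5), against 203 over parental cells (176 to 233), and the intervals cover counting error only. The clone libraries were all below the parental ones. In a fit of all genes without a filter, Gpc3 was lower by a log2 change of -0.96 in clone 19 and -0.99 in clone 1 (adjusted p = 1.1e-05 and 7.9e-06, limma), in the direction of the other lower glypicans. Gpc5 had 3, 6 and 7 reads in clone 19 and 0, 7 and 8 in clone 1, against 2, 0 and 0 in parental cells. Without a filter its log2 change of 0.16 in clone 19 and 0.13 in clone 1 missed the threshold (limma, adjusted p = 0.067 and 0.13), on the few reads of this gene. Over all libraries of a group there were 16 reads in clone 19 (95% exact Poisson interval 9.15 to 26.0) and 15 in clone 1 (8.40 to 24.7), against 2 in parental cells (0.24 to 7.22). The clone 19 libraries lay above the parental ones, and clone 1 overlapped them.

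**Figure D2:**
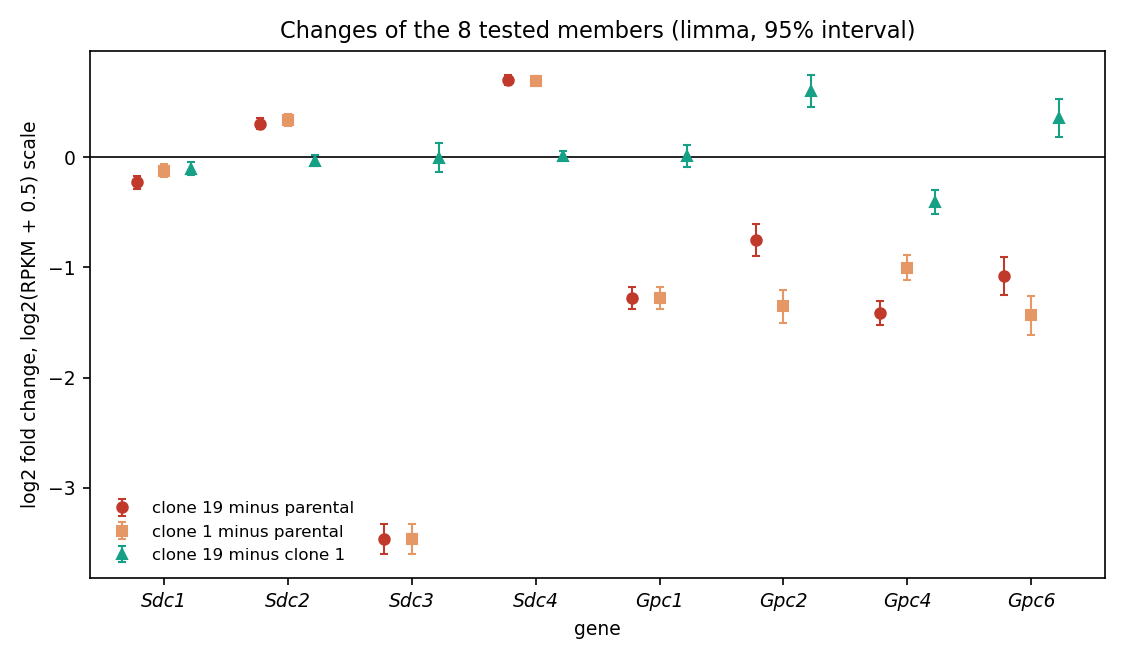
Log2 fold changes of the 8 tested members on the log2(RPKM + 0.5) scale, with 95% intervals from limma, for clone 19 minus parental (circles), clone 1 minus parental (squares) and clone 19 minus clone 1 (triangles). The 4 tested glypicans lie between -1.43 and -0.75 in both clones against parental cells, and the intervals of the difference between the clones leave 0 for Gpc2, Gpc4, Gpc6 and Sdc1.

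The clones were also compared directly. Of the 8 tested, 4 were called between clone 19 and clone 1, 2 in each direction, where 43.0% of all tested genes were called (18.5% higher, 24.5% lower in clone 19). Gpc2 was higher in clone 19 by 0.60 ± 0.07 (log2, SE; 95% interval 0.45 to 0.75; adjusted p = 6.0e-05, limma) and Gpc6 by 0.36 ± 0.08 (0.18 to 0.53; adjusted p = 0.0043). Gpc4 was lower in clone 19 by a log2 difference of -0.41 ± 0.05 (95% interval -0.52 to -0.30; adjusted p = 1.0e-04, limma) and Sdc1 by -0.11 ± 0.03 (-0.17 to -0.05; adjusted p = 0.0091). None of these reached 2-fold, as 0.461% of all tested genes did. The remaining 4 did not pass: Sdc2 differed by -0.03 (95% interval -0.08 to 0.02), Sdc3 by -0.00 (-0.14 to 0.13), Sdc4 by 0.01 (-0.03 to 0.06) and Gpc1 by 0.01 (-0.09 to 0.11). Missing the threshold does not show that these levels are equal, and the widest of the 4 intervals is that of Sdc3. Gpc1 alone among them was called when neighbouring genes were subtracted (0.17, adjusted p = 0.011, limma).

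The syndecans include the most abundant members and the glypicans the scarce ones, and in the clones syndecans made up more of the summed level. All 10 genes together came to 293.0 ± 0.5 RPKM in clone 19 and 293.8 ± 3.8 RPKM in clone 1, against 255.1 ± 3.3 RPKM in parental cells (SD, n = 3 each). The syndecan sum was 271.6 to 272.7 RPKM in clone 19 and 270.8 to 277.1 RPKM in clone 1, against 203.1 to 210.2 RPKM in parental cells. The glypican sum was 20.4 to 20.8 RPKM in clone 19 and 18.7 to 19.7 RPKM in clone 1, against 47.7 to 48.8 RPKM in parental cells. Neither sum overlapped between a clone and parental cells. RPKM summed over all genes was itself higher in the clones. It was 362577 to 363487 in clone 19 and 362550 to 366950 in clone 1, against 344176 to 347401 in parental cells. The log2 ratio of the 10-gene sum to parental cells was 0.20 in each clone. With median-ratio scaling it was 0.18 in clone 19 and 0.17 in clone 1. The sums and shares were not tested.

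Glypicans made up 7.06% ± 0.08 of the summed level in clone 19 and 6.54% ± 0.09 in clone 1, against 18.9% ± 0.4 in parental cells (SD, n = 3 each). Sdc4 alone made up 66.5% ± 0.3 in clone 19 and 65.8% ± 0.3 in clone 1, against 46.9% ± 0.5 in parental cells. Sdc3 shrank to 0.19% of the sum in each clone, against 4.41% ± 0.11 in parental cells. Within the glypican sum, Gpc1 remained the leading gene at 42.9% in clone 19 and 46.0% in clone 1, against 45.9% in parental cells. The second place differed by clone, with Gpc2 at 32.6% and Gpc4 at 18.4% in clone 19, and Gpc2 at 22.2% and Gpc4 at 27.2% in clone 1, against 24.2% and 22.7% in parental cells.

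**Figure D3:**
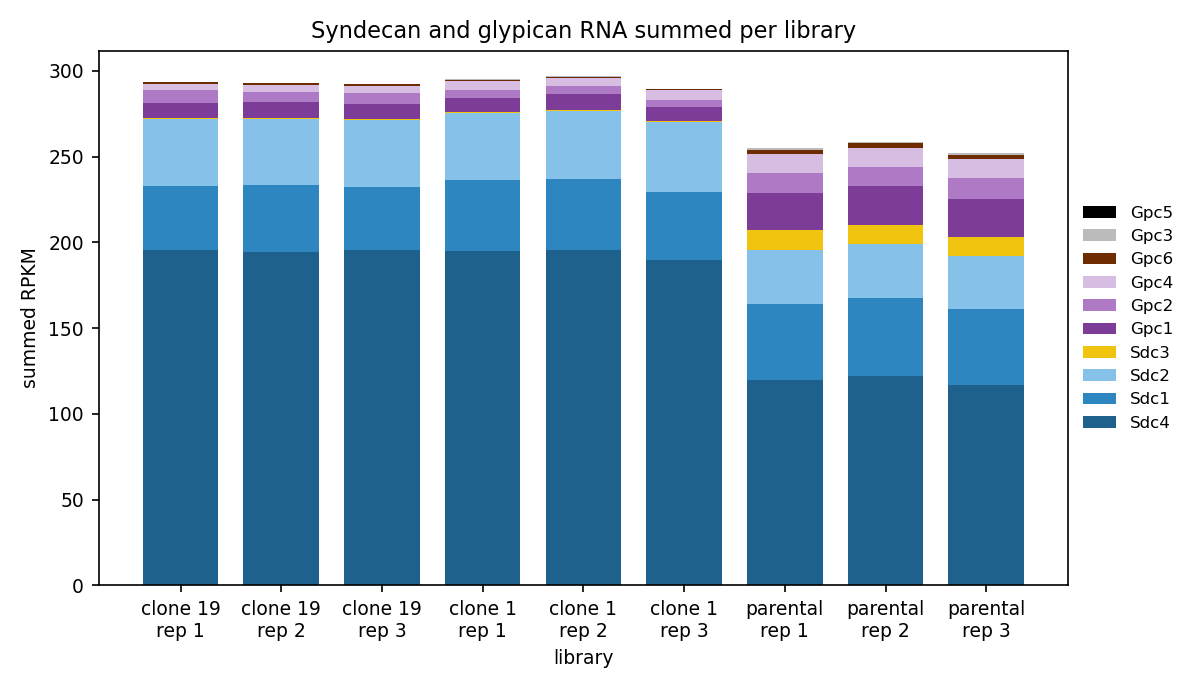
Summed RPKM of the 10 genes in each library, stacked by gene, with clone 19, clone 1 and parental libraries from left to right. The sums reach 292.4 to 293.5 RPKM in clone 19 and 289.5 to 296.8 RPKM in clone 1, against 251.9 to 258.6 RPKM in parental cells, and the Sdc3 band (yellow) is visible in parental cells and almost gone in the clones.

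Ordered by level, Sdc4 came first in every group by a wide margin. In clone 19 it was followed by Sdc2 and Sdc1, whose libraries overlapped, then Gpc1, Gpc2, Gpc4, Gpc6, Sdc3, Gpc3 and Gpc5. Clone 1 had Sdc1 and Sdc2 next, again overlapping, then Gpc1, Gpc4, Gpc2, Gpc6, Sdc3, Gpc3 and Gpc5. In parental cells Sdc1 stood clearly above Sdc2, and Sdc3 was in the sixth place, overlapping Gpc2 and just above Gpc4. Sdc3 fell to eighth place in both clones. The libraries of all other neighbours in these 3 orders did not overlap. The gap was narrower than the spread between libraries for Gpc6 and Sdc3 and for Gpc3 and Gpc5 in both clones, for Gpc1 and Gpc2 in clone 19, and for Sdc3 and Gpc4 in parental cells.

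**Figure D4:**
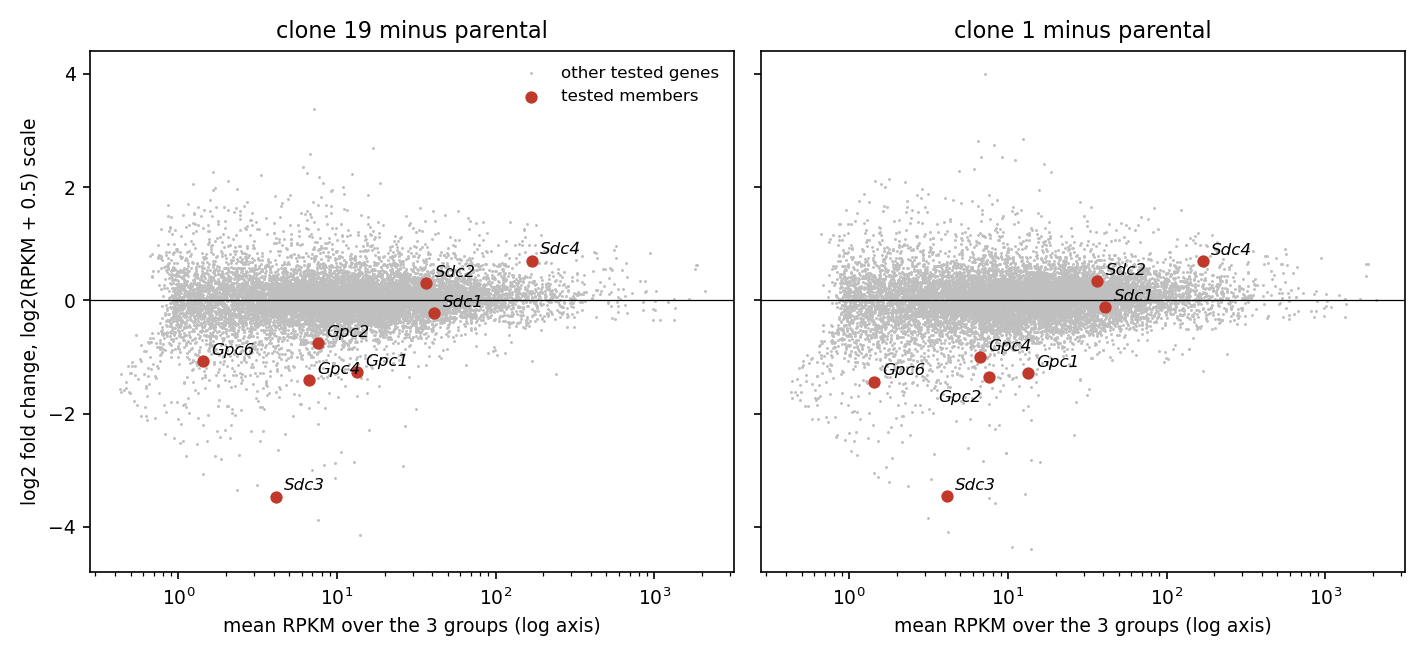
Log2 fold change against parental cells plotted over the mean RPKM of the 3 groups (log axis) for all 12568 tested genes (grey) and the 8 tested members (red), clone 19 left and clone 1 right. Sdc3 lies at -3.46 near the lower edge of both clouds and the 4 tested glypicans at -0.75 or below, while Sdc4 at 0.70 and 0.69 stands above most genes of its level.

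Each member's change was set beside that of its neighbours along the chromosome. The median log2 change of the 50 nearest tested genes was between -0.05 and 0.11 around the tested members in clone 19 and between -0.07 and 0.13 in clone 1. The changes of Sdc3, Sdc4 and the 4 glypicans exceeded the size of these medians several times over. For Sdc1 the medians were 0.07 and 0.08, opposite in sign to its own change. For Sdc2 they were 0.07 and 0.13 beside its own 0.30 and 0.34, and with neighbours subtracted Sdc2 was still called in both clones, at 0.24 and 0.21.

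The genes that build, trim and bind heparan sulfate did not move as one group. Of 110 further genes of the pathway, 85 were tested. In clone 19, 31 were higher, 36 lower and 18 did not pass, and in clone 1 38 were higher, 31 lower and 16 did not pass. The median log2 change over the 85 was 0.02 and 0.04, as over all genes, and their median absolute change was 0.33 and 0.42, beside 0.20 and 0.22 over all tested genes. Called genes were 67 of the 85 in clone 19 and 69 in clone 1, beside 69.0% and 72.4% of all tested genes. The 2-fold line was passed by 11 of them in clone 19 and by 12 in clone 1, beside 4.07% and 4.46% of all tested genes. These counts include Pxylp1, Fgfr1 and Fgf10, and in clone 1 also Mmp16. Each of those passed the filter only through libraries where it was high, so a difference was built into its inclusion.

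Chain assembly starts on a linker sugar. Of 12 genes for the linker and chain polymerization, 10 were tested, with 2 higher, 5 lower and 3 not passing in clone 19, and 2, 4 and 4 in clone 1. Pxylp1, the phosphatase that removes the phosphate from the linker xylose, was nearly lost, at 0.295, 0.317 and 0.271 RPKM in the clone 19 libraries and 0.234, 0.324 and 0.336 RPKM in clone 1, against 3.94, 3.96 and 3.94 RPKM in parental cells. No clone library came near the parental ones. Its log2 change was -2.49 ± 0.07 and -2.48 ± 0.07 (SE; adjusted p = 3.5e-10 and 3.4e-10, limma), and like Sdc3 it passed the filter only through the parental libraries. Xylt2, which adds that xylose, was lower by -0.59 in clone 19 and -0.63 in clone 1. Ext1 and Ext2, which together polymerize the chain, were lower by log2 changes of -0.43 and -0.50 in clone 19, and by -0.47 each in clone 1. Fam20b, the kinase that Pxylp1 opposes, was higher by 0.11 and 0.29.

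Sulfation genes went both ways. Of 16 genes for sulfation and epimerization, 7 were tested, 3 higher and 4 lower in clone 19, and 3 higher, 2 lower and 2 not passing in clone 1. Hs6st1 and Hs6st2, the 6-O-sulfotransferases, were higher, Hs6st2 at 53.7, 57.5 and 53.5 RPKM in the clone 19 libraries and 71.4, 70.6 and 71.8 RPKM in clone 1, against 44.5, 42.5 and 43.2 RPKM in parental cells. The log2 change of Hs6st1 was 0.37 and 0.63, and that of Hs6st2 0.34 and 0.71. Hs3st1, which adds the 3-O-sulfate of the antithrombin site, was higher by 0.79 and 0.76. Glce, the epimerase that turns glucuronic into iduronic acid, was lower by -0.62 and -0.41 (adjusted p = 9.2e-08 and 2.2e-06, limma).

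All 9 genes for sugar and sulfate donors were tested, with 5 higher, 3 lower and 1 not passing in clone 19, and 4, 3 and 2 in clone 1. Papss2, which makes the sulfate donor PAPS, measured 12.7, 13.4 and 12.9 RPKM in the clone 19 libraries and 18.0, 18.0 and 17.2 RPKM in clone 1, against 5.35, 5.50 and 5.77 RPKM in parental cells. The groups were all apart, and the log2 change was 1.16 ± 0.04 and 1.59 ± 0.04 (SE; adjusted p = 6.5e-10 and 8.1e-11, limma). Ugp2, which makes UDP-glucose, was higher by 0.78 and 0.49, and Ugdh, which oxidizes it to UDP-glucuronic acid, was lower by -0.50 and -0.45. Bpnt2, a Golgi phosphatase that clears the by-product of sulfation, was higher by 0.29 and 0.52.

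Chains and cores are also edited outside the cell. Of 15 genes for editing, cleavage and shedding, 11 were tested, with 2 higher, 3 lower and 6 not passing in clone 19, and 6, 3 and 2 in clone 1. Sulf2, which removes 6-O-sulfates, was lower by -0.69 and -0.73. Sulf1, the other enzyme of this kind and the more abundant one here, did not pass in clone 19 (0.05) and was higher in clone 1 (0.48, adjusted p = 1.9e-07, limma). Hpse, the heparanase that cuts the chain, was lower by -0.71 and -1.22, at 1.70, 1.53 and 1.80 RPKM in the clone 19 libraries and 0.824, 1.10 and 1.17 RPKM in clone 1, against 3.05, 3.14 and 2.95 RPKM in parental cells. The membrane protease gene Mmp16 was higher by 0.72 and 1.15 from a low level and passed the filter only through clone 1, where it was highest. In mean RPKM it stood at 276% of parental cells in clone 19 and 429% in clone 1, more than the log2(RPKM + 0.5) scale shows. Furin, which processes glypican cores, was lower by -0.52 and -0.39. Adam17, a protease known to release syndecan ectodomains, measured 16.2 ± 0.5, 16.9 ± 0.3 and 16.3 ± 0.1 RPKM in clone 19, clone 1 and parental cells (SD, n = 3 each) and did not pass in either comparison.

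Inside the lysosome, 8 of 9 breakdown genes were tested, with 2 higher, 4 lower and 2 not passing in clone 19, and 3, 4 and 1 in clone 1. Gusb, the beta-glucuronidase, was at 11.9, 11.5 and 11.0 RPKM in the clone 19 libraries and 12.0, 12.3 and 11.4 RPKM in clone 1, against 26.4, 25.2 and 26.7 RPKM in parental cells, a log2 change of -1.15 ± 0.04 and -1.10 ± 0.04 (SE; adjusted p = 7.6e-10 and 1.1e-09, limma). The sulfatase Arsk was lower by -0.57 in clone 19 and by -0.53 in clone 1, whereas Sgsh, the sulfamidase, was higher by 0.69 and 0.48.

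Other proteoglycans can carry heparan sulfate too. Of 10, 6 were tested, with 4 higher and 2 lower in clone 19, and 5 higher and 1 lower in clone 1. Nrp1, the neuropilin that binds VEGF and semaphorins, was higher by 0.62 and 0.89, and Tgfbr3, the TGF-beta co-receptor betaglycan, by 0.64 and 0.45. Col18a1, the basement membrane collagen that holds endostatin, was lower by -1.08 and -1.45, at 1.36, 1.14 and 1.40 RPKM in the clone 19 libraries and 0.855, 0.867 and 0.955 RPKM in clone 1, against 3.30, 3.31 and 3.29 RPKM in parental cells. The neighbours of Col18a1 were lower too, with medians of -0.35 in clone 19 and -0.36 in clone 1. Hspg2, which encodes perlecan, was higher by 0.26 (adjusted p = 0.031, limma) and 0.48 (adjusted p = 0.00096), and its call in clone 19 ended with neighbouring genes subtracted (0.11, adjusted p = 0.31), without a filter or a trend, and without any one of clone 19 libraries 1 and 3 and parental libraries 1 and 3 (limma, adjusted p = 0.061 to 0.10).

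Partners of the syndecan tail, which tie it to the cytoskeleton and to signalling proteins, went both ways. Of 13, 12 were tested, with 5 higher, 4 lower and 3 not passing in clone 19, and 6, 3 and 3 in clone 1. Ezr, which encodes ezrin, a link between membrane proteins and actin, measured 493, 499 and 507 RPKM in the clone 19 libraries and 479, 482 and 476 RPKM in clone 1, against 276, 281 and 275 RPKM in parental cells (log2 change 0.85 and 0.79). Actn1, an alpha-actinin, was higher by 0.34 and 0.51, and Cask, a PDZ protein that binds syndecan tails, by 0.33 and 0.44. Tiam1, a Rac exchange factor bound by syndecans, was lower by -0.32 and -0.80. Sdcbp, which encodes syntenin, measured 50.3 ± 0.4, 53.2 ± 0.7 and 52.1 ± 0.3 RPKM in clone 19, clone 1 and parental cells (SD, n = 3 each), a log2 change of -0.05 and 0.03.

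Of 26 genes for factors that heparan sulfate presents and their receptors, 22 were tested. In clone 19, 8 were higher, 11 lower and 3 did not pass, and in clone 1 the numbers were 9, 11 and 2. Their median absolute log2 change was 0.54 in clone 19 and 0.77 in clone 1. It was 0.20 and 0.22 over all tested genes, and 1.17 and 1.32 for the 4 tested glypicans. Of the 22, 7 in clone 19 and 6 in clone 1 passed 2-fold, beside 4.07% and 4.46% of all tested genes. Those include Fgfr1 and Fgf10, which passed the filter only through libraries where they were high. Mdk, the heparin-binding growth factor midkine, measured 3.83, 3.49 and 4.14 RPKM in the clone 19 libraries and 0.791, 0.914 and 0.852 RPKM in clone 1, against 26.2, 27.0 and 28.2 RPKM in parental cells. The fitted log2 change was -2.68 ± 0.06 and -4.35 ± 0.06 (SE; adjusted p = 6.3e-11 and 4.6e-12, limma).

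Fibroblast growth factor genes went both ways. Fgfr1, a receptor that needs heparan sulfate to bind its ligands, measured 1.11, 0.951 and 1.16 RPKM in the clone 19 libraries and 0.559, 0.459 and 0.444 RPKM in clone 1, against 8.31, 8.43 and 8.11 RPKM in parental cells (log2 change -2.48 and -3.16). Like Sdc3, it passed the filter only through the parental libraries. The ligand gene Fgf18 was higher in both clones, at 42.3, 42.5 and 45.0 RPKM in the clone 19 libraries and 43.6, 45.1 and 42.3 RPKM in clone 1, against 13.3, 13.3 and 14.1 RPKM in parental cells (1.64 and 1.65). Fgf10, another ligand, measured 2.31, 2.62 and 2.43 RPKM in the clone 19 libraries and 3.95, 3.83 and 3.5 RPKM in clone 1, against 0.50, 0.488 and 0.503 RPKM in parental cells (1.57 and 2.10). It passed the filter only through the clone libraries, where it was high, so a difference was built into its inclusion. For each of these genes the clone libraries lay apart from the parental ones. The ligand gene Fgf2 differed by 0.04 in clone 19 (adjusted p = 0.80, limma) and was lower by -0.55 in clone 1 (adjusted p = 0.0018). The receptor gene Fgfr3 did not pass in either clone (0.12 and -0.13).

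**Figure D5:**
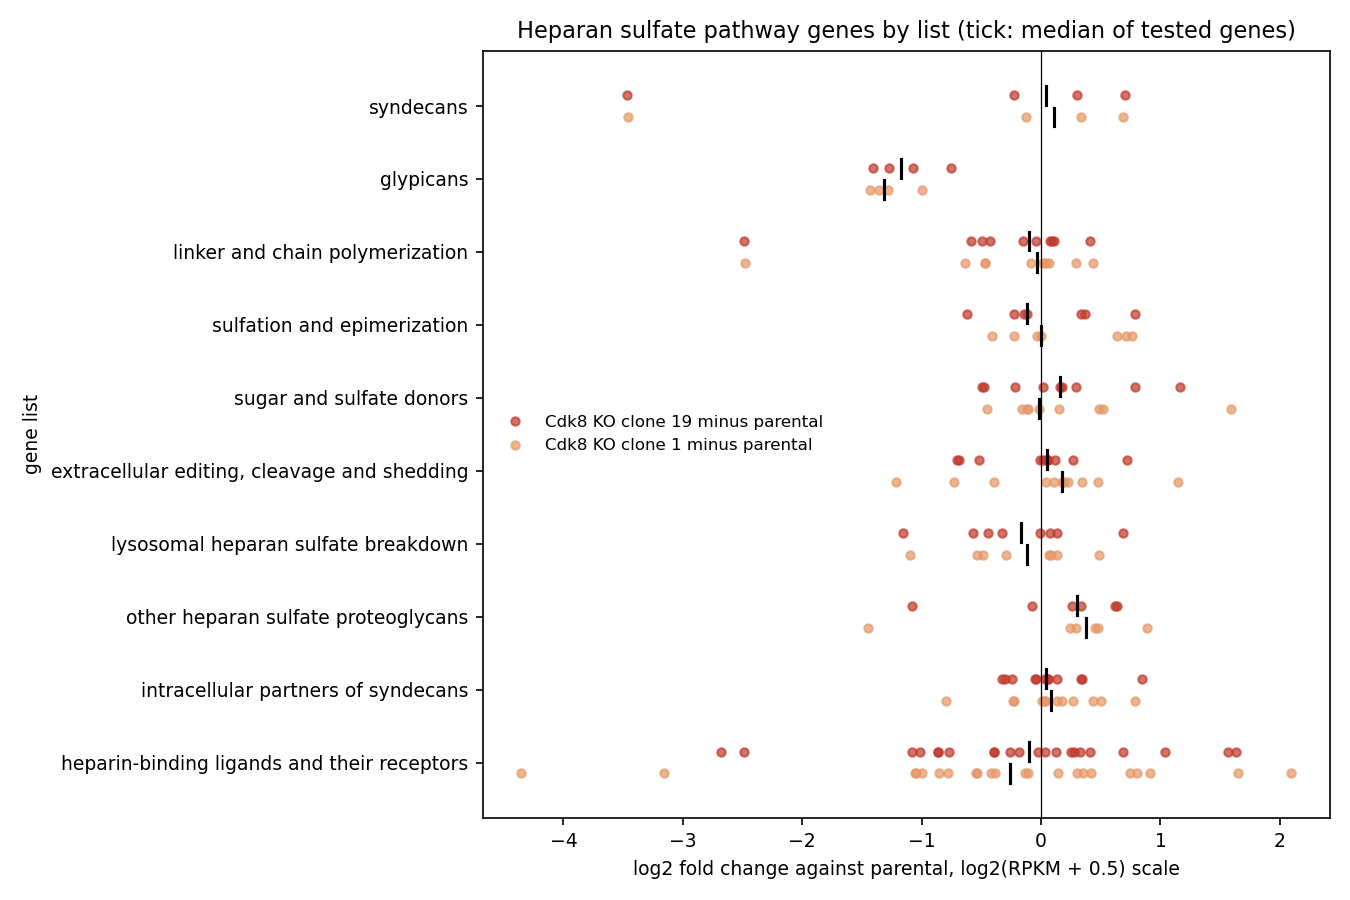
Log2 fold changes against parental cells, on the log2(RPKM + 0.5) scale, for every tested gene of the 10 lists, with clone 19 above clone 1 in each row and a black tick at the list's median. The 4 tested glypicans lie wholly left of 0, with medians of -1.17 and -1.32, and Gpc6 passed the filter only through parental libraries. Every other list, of 4 to 22 tested genes, has genes on both sides. The untested glypicans are not drawn. Without a filter Gpc3 was lower (-0.96 and -0.99), and Gpc5 was higher but not called (0.16 and 0.13).

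The genes whose pattern over the 9 libraries was nearest to that of the 3 members with the largest changes were found by Euclidean distance between deviations of log2(RPKM + 0.5) from each gene's mean. The measure mostly reads the difference between clones and parental cells that all points share, and it is given as a description. Nearest to Sdc3 were Ackr3 (distance 0.40; 0.201 RPKM in clone 19 and 0.24 RPKM in clone 1, against 6.63 RPKM in parental cells), Lrrc32 (0.60) and Sfrp1 (0.68). Nearest to Gpc1 were Pfkl (0.14; 8.58 RPKM in clone 19 and 8.77 RPKM in clone 1, against 21.3 RPKM in parental cells), Eef2k (0.16) and Vldlr (0.17). Nearest to Gpc6 were Rxra (0.17; 5.0 RPKM in clone 19 and 4.01 RPKM in clone 1, against 11.5 RPKM in parental cells), Cth (0.24) and Serpinb1a (0.26).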

How the data were processed

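The values are RPKM (reads divided by gene model length in kilobases and by megareads) that the authors deposited for 28059 Entrez IDs. GSNAP, DESeq and the build NCBIM37 are named without versions or roles, per the submitters' processing notes. A column kit gave the total RNA and a TruSeq kit the libraries, per the labels' protocols. How reads were counted, and what was done with reads matching several genes, is not given in the sources used here. IDs were named through RefSeq and GENCODE M21 tables of GRCm38, which matched all 120 list entries. RPKM values are whole multiples of what 1 read is worth, and whole reads (within 0.02) were recovered for 99.9% of 19439 genes. Those counts gave the reads behind each member.

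Values were tested as log2(RPKM + 0.5) in limma 3.58.1 (R 4.3.3), using its mean-variance trend, for 12568 genes reaching 1 RPKM in 3 or more of the 9 libraries, all in 1 model of group means. Adjusted p-values are Benjamini-Hochberg within a contrast, called under 0.05. Genes named from each other list were up to 4 a list, called in 1 direction in each clone and ranked by the smaller change; the others named (Fam20b, Adam17, Sdcbp, Sulf1, Fgf2 and Fgfr3) were chosen for their role after their values were seen. A gene that this rule names is not reported here. Members and lists were chosen with earlier results of these data known. Alternatives were median-ratio scaling, quantile normalization, pseudocounts of 0.1 and 1, no trend, no filter, filtering at 3 RPKM, array weights, only the compared groups in the fit, a replicate block, a 2-fold threshold, subtraction of the median of 50 neighbouring genes and each library left out. A fit with voom weights on the recovered reads was added after seeing the data.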

Additional observations from a re-analysis of the deposited data

Results flagged for a closer look

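The changes of the 2 clones against the shared parental libraries differed from each other, by limma's direct test of clone 19 minus clone 1, for 24 of the members and other genes named by rule. Over whole lists, 4 of the 8 tested members and 48 of the 85 tested pathway genes did so, beside 43.0% of all tested genes. Genes outside the members were named by the size of their change against parental cells, so the 24 are not a share to set beside that percentage. Differences are log2, clone 19 minus clone 1, and positive means higher in clone 19. Among the members these were Gpc2 (0.60), Gpc6 (0.36), Gpc4 (-0.41) and Sdc1 (-0.11). Gpc2 and Gpc6 were nearer to parental cells in clone 19, and Gpc4 and Sdc1 in clone 1.

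Among genes that make the chain, the difference was -0.21 for Glce, -0.27 for Hs6st1, -0.37 for Hs6st2, -0.43 for Papss2, 0.30 for Ugp2 and -0.22 for Bpnt2. Among those that edit or degrade it, it was -0.43 for Mmp16, 0.51 for Hpse, -0.13 for Furin and 0.21 for Sgsh. Other proteoglycans gave 0.37 for Col18a1, -0.27 for Nrp1 and 0.18 for Tgfbr3, and partners of syndecans 0.059 for Ezr, -0.17 for Actn1, -0.10 for Cask and 0.47 for Tiam1. Ligands and receptors gave 1.67 for Mdk, 0.67 for Fgfr1 and -0.53 for Fgf10. On the log2(RPKM + 0.5) scale, Mdk alone of the 24 differed by more than 2-fold between the clones. That scale understates differences of low genes: Fgfr1 averaged 1.07 RPKM in clone 19 and 0.487 RPKM in clone 1. Its log2 difference reached 1.14 under the alternatives. With 3 libraries a group, single libraries were not tested for standing apart.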

How the results depend on the processing

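Apart from the 2-fold threshold, every alternative that tested them kept the direction and the call of the 8 tested members in both clones. This held for 334 of 334 values against parental cells. A filter at 3 RPKM left Gpc6 untested. Requiring 2-fold reduced the genes called from 8675, 9096 and 5404 (clone 19 minus parental, clone 1 minus parental, clone 19 minus clone 1) to 512, 561 and 58, the members from 8, 8 and 4 to 4, 5 and 0, and the other pathway genes from 67, 69 and 48 to 11, 12 and 1. Leaving out 1 library at a time gave 8094 to 8781, 8556 to 9107 and 4434 to 5207 genes and 60 to 67, 67 to 69 and 41 to 49 pathway genes, with 8, 8 and 4 members throughout.

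Signs turned only for member differences between the clones that were not called: Sdc2 at 0.027 with neighbouring genes subtracted, Sdc3 at 0.0051 with median-ratio scaling, Sdc4 at -0.0097 with quantile normalization, and, with 1 library left out, Sdc3 at -0.049 to 0.020, Sdc4 at -0.0020 to 0.021 and Gpc1 at -0.034 to 0.057. The cause was not tested. Calls that ended in places were Hspg2 in clone 19 (adjusted p = 0.077 without a filter, 0.056 without a trend; limma) and clone differences of Glce, Sgsh, Tgfbr3, Ezr and Cask.

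Correlations of library deviations were -0.04 to 0.12 for same-numbered libraries and -0.14 to 0.08 for differently numbered ones. Same-numbered clone 1 and parental libraries gave 0.12, 0.07 and 0.07, so whether replicate numbers pair libraries was not settled. A replicate block gave 8574, 9037 and 5169 genes and 8, 8 and 4 members. Precision for Gpc3, Gpc5, Sdc3 and Gpc6 in the clones is limited by few reads.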
